A study of Mus musculus with 6 samples.

Results

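The SLAM receptors are a family of surface glycoproteins of blood cells, and the SAP adaptors are small cytoplasmic proteins that carry signals from their tails. The 10 genes described here were taken by name from the annotation of the arrays. The receptors are Slamf1, Cd48, Ly9, Cd244, Cd84, Slamf6 and Slamf7. The adaptor genes are Sh2d1a (SAP), Sh2d1b1 (EAT-2, a SAP relative) and Sh2d2a (TSAd, which binds the kinase Lck). These 10 of the 30342 gene names on the arrays are read by 15 of 39429 probes, with 2 probes for 5 genes and 1 probe for the other 5. All 15 probes were kept in the account, and 9 of the 10 genes were measured on enough arrays to be tested.

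The samples were γδ T cells, a lymphocyte lineage with its own antigen receptor, sorted from the spleens of mice carrying the Eomes-IRES-GFP reporter, in which GFP is made from the same transcript as the transcription factor Eomes. Eomes-positive cells (GFP+) were compared with Eomes-negative cells (GFP-), with 3 arrays in each group. Both groups came from mice of the reporter strain on the C57BL6 background, were depleted of B220+, CD4+ and CD8β+ cells, and were gated as CD3+ TCRγδ+ TCRβ-. Each of the 3 sorts pooled the spleens of 4 to 6 mice and gave 1 sample of each group, at 9, 9.5 and 7.5 weeks of age and with 9, 9 and 4 ng of RNA in sorts 1, 2 and 3. The replicate is therefore a pool of mice, and no array of cells without the reporter allele was part of the comparison. These are bulk samples, so fewer cells with a transcript and less of it per cell cannot be told apart.

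Most SLAM receptors bind a second copy of themselves on a neighbouring cell, whereas CD244 (2B4) binds CD48, which has no cytoplasmic tail and is held in the membrane by a lipid anchor. The tails of most of the others carry immunoreceptor tyrosine-based switch motifs, which bind SAP (the product of Sh2d1a) or EAT-2 (the product of Sh2d1b1) once phosphorylated. SAP recruits the kinase Fyn, and in its absence the same motifs can bind inhibitory phosphatases such as SHP-1 and SHIP-1. In T cells this system is known for its part in the development of innate-like lymphocytes, in help to B cells and in killing.

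Codons that match the switch motif lie inside 2 of the 15 probes, one in Ly9 and one in Slamf6, and these are shown because the motif is what SAP binds. The match was found in a reading frame of the probe without a stop codon, and the frame was not checked against the proteins. The files place the Ly9 probe at chr1:173523555-173523614 on the minus strand and the Slamf6 probe at chr1:173871767-173871826 on the plus strand of mm9. The 6 matching codons are in capitals.
Ly9: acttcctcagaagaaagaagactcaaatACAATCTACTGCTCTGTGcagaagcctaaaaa
Slamf6: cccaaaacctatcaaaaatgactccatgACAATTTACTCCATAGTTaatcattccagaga
A motif of this form was present in 120 of the 39429 probes (0.304%).

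Every level is a log2 signal minus the array's own 75th percentile, so 0 stands for that percentile, and levels of different probes cannot be set against each other. Eomes itself stood at 5.31, 4.96 and 4.48 in Eomes-positive cells of sorts 1, 2 and 3, against 0.72, 0.88 and -1.14 in Eomes-negative cells, which fits the labels. Between 47.7% and 56.6% of the probes were well above background on each array. Differences were tested with limma over 16413 genes, with Benjamini-Hochberg adjustment and a threshold of 0.05; a second fit took the sort as a block, because both samples of a sort came from the same pool of spleens. The threshold was passed by 1.2% of all tested genes upward and 1.57% downward, and with the sort as a block by 3.66% upward and 4.33% downward.

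Against this background, 2 of the 9 tested genes rose in Eomes-positive cells, the receptor gene Slamf7 and the adaptor gene Sh2d1a, and 0 fell, with 5 of the 9 at an unadjusted p under 0.05 (12.2% of all tested genes). In the blocked fit, 4 rose (Slamf7, Sh2d1a, Cd244 and Ly9) and 1 fell (Slamf1). The 3 Eomes-positive values lay above all 3 Eomes-negative values for 4 of the 9 genes (8.53% of all tested genes did so) and below them for 1 (9.68% of all tested genes), and they overlapped for the remaining 4. The difference had the same sign in all 3 sorts for 7 of the 9 genes, 5 higher and 2 lower in Eomes-positive cells, against 25.3% and 27.1% of all tested genes. The median difference of the 9 genes was 0.12, against -0.013 over all tested genes. An exact permutation test of 3 arrays against 3 cannot give a two-sided p below 0.1, so the tests rest on the spread that limma estimates from all genes. At the probe level, 2 of the 14 tested probes rose and 0 fell, against 1.04% and 1.38% of all tested probes. In the blocked fit 5 of the 14 rose and 1 fell, against 3.05% and 3.67%.

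**Figure D1:**
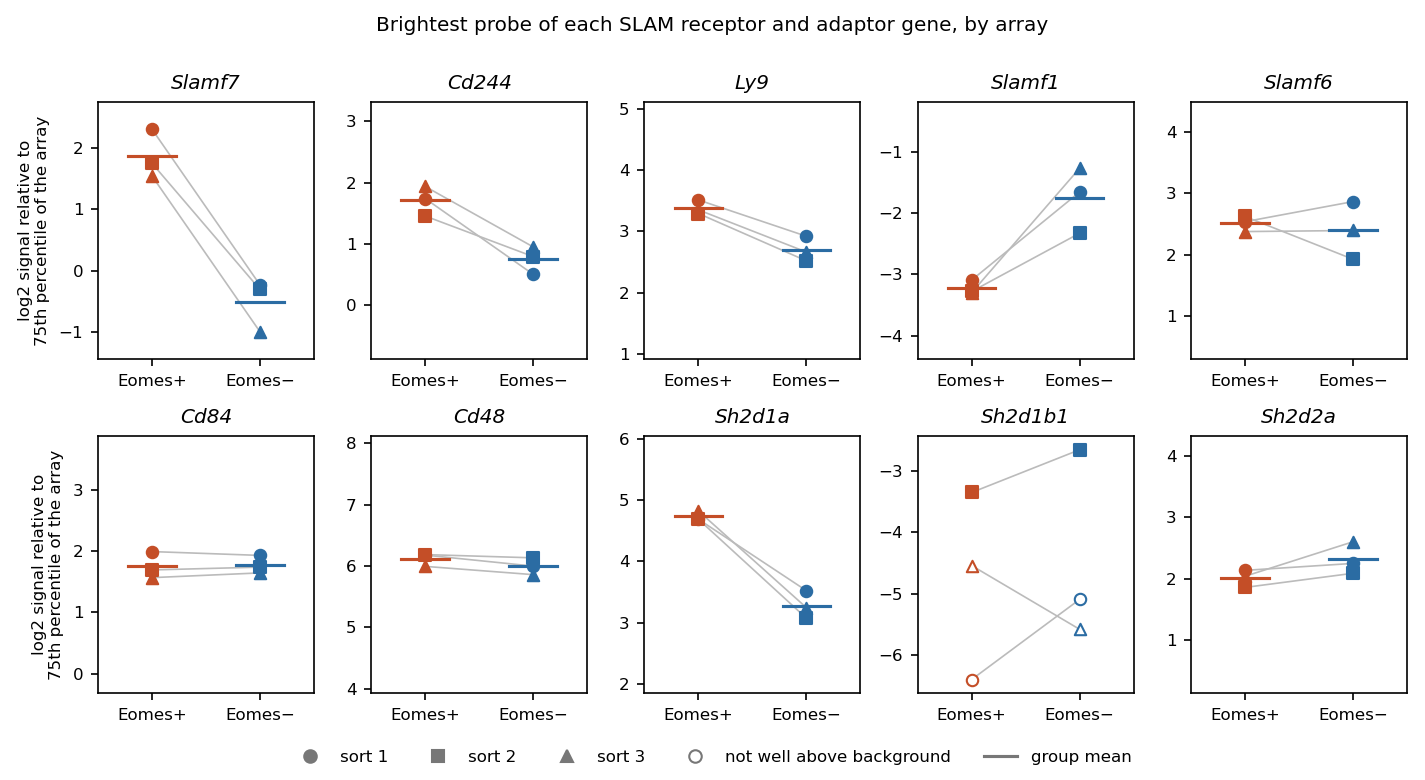
Log2 signal above or below the array's 75th percentile (vertical axis) for the brightest probe of each of the 10 genes, with Eomes-positive cells (Eomes+) on the left and Eomes-negative cells (Eomes−) on the right of each panel. Each point is an array, its shape gives the sort, grey lines join the samples of a sort, and bars are group means (none for Sh2d1b1, with open points for arrays where a probe was not well above background); the Eomes-positive points of Slamf7, Sh2d1a, Cd244 and Ly9 lie above all Eomes-negative points, and those of Slamf1 lie below them.

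The largest change among the 9 tested genes was in Slamf7 (CRACC, CS1), a self-binding receptor best known from natural killer cells, plasma cells and cytotoxic T cells. Its probe, at chr1:173562534-173562593 of mm9, gave 2.31, 1.75 and 1.55 in Eomes-positive cells of sorts 1, 2 and 3, against -0.23, -0.31 and -0.996 in Eomes-negative cells. The groups did not overlap, and the difference within a sort was 2.54, 2.06 and 2.54 in sorts 1, 2 and 3. Slamf7 rose by 2.38 ± 0.30 (SE, n = 3 each; 95% interval 1.64 to 3.12), a 5.21-fold change, with a limma adjusted p of 0.0193. The standard error was 0.14 with the sort as a block, and the limma adjusted p was then 0.0074. In the fit without the block, leaving out any 1 array or sort kept the difference between 2.14 and 2.54. The limma adjusted p was then 0.051 to 0.208, so no call at the threshold survived the loss of an array. Without sort 1 or sort 2, 0 of all tested genes passed.

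Sh2d1a, on chromosome X, encodes SAP, the adaptor that couples most SLAM tails to Fyn. The Eomes-positive samples read 4.68, 4.68 and 4.82 in sorts 1, 2 and 3, against 3.52, 3.07 and 3.24 in the Eomes-negative samples, at chrX:39875116-39875175 of mm9. The Eomes-positive values were close to one another and all above the Eomes-negative ones. Sh2d1a rose by 1.45 ± 0.17 (SE, n = 3 each; 95% interval 1.04 to 1.86), or 2.74-fold, with a limma adjusted p of 0.0140, and of 0.0145 with the sort as a block. With the slide as a block the difference was 1.47 and the limma adjusted p 0.0548. Without single arrays or sorts the difference stayed between 1.35 and 1.60, but only the fit without the Eomes-negative array of sort 1 kept the call (limma adjusted p 0.0325), and in the others the adjusted p was 0.055 to 0.203.

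Cd244 encodes 2B4, the receptor for CD48, which is typical of natural killer cells and of memory and effector CD8 T cells. It read 1.74, 1.46 and 1.94 in Eomes-positive cells of sorts 1, 2 and 3, against 0.51, 0.80 and 0.95 in Eomes-negative cells, at chr1:173515388-173515447 of mm9. The groups did not overlap, although the gap in sort 2 (0.66) was narrower than in sorts 1 and 3 (1.24 and 0.99). The difference of 0.96 ± 0.20 (SE, n = 3 each), or 1.95-fold, had a limma adjusted p of 0.0845, and of 0.0379 with the sort as a block.

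The ligand of CD244 showed no such gap. Cd48 was read by 2 probes, and the brighter, at chr1:173635201-173635260 of mm9, gave 6.18, 6.18 and 5.99 in Eomes-positive cells and 6.00, 6.13 and 5.86 in Eomes-negative cells of sorts 1, 2 and 3. The groups overlapped, with a difference of 0.12 (95% interval -0.24 to 0.48) and a limma adjusted p of 0.926. The other Cd48 probe, at chr1:173629721-173629780, gave a difference of 0.13. Cd2, the second receptor of CD48 in the mouse, read 5.25, 5.0 and 5.27 in Eomes-positive cells and 5.29, 4.99 and 4.94 in Eomes-negative cells, a difference of 0.10 ± 0.17 (SE, n = 3 each; limma adjusted p 0.965).

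Ly9 (CD229) is a self-binding receptor of T and B cells with a long tail that binds SAP. Its brighter probe, at chr1:173518744-173518790 of mm9, gave 3.51, 3.29 and 3.35 in Eomes-positive cells, against 2.92, 2.52 and 2.66 in Eomes-negative cells of sorts 1, 2 and 3. The probe with the motif match gave 2.81, 2.69 and 2.70 in Eomes-positive cells, against 2.28, 1.85 and 1.91 in Eomes-negative cells. Neither probe showed overlap between the groups, and their differences were much alike, 0.68 ± 0.16 (SE, n = 3 each) at the brighter and 0.72 at the other. At the brighter probe this is 1.61-fold, with a limma adjusted p of 0.123, and of 0.0313 with the sort as a block. At the other probe the limma adjusted p, taken over all tested probes, was 0.131, and 0.0446 with the sort as a block.

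Slamf1 (CD150, SLAM), the self-binding receptor that gave the family its name, ran the other way. It read -3.09, -3.28 and -3.30 in Eomes-positive cells of sorts 1, 2 and 3, against -1.66, -2.33 and -1.27 in Eomes-negative cells, at chr1:173730343-173730402 of mm9. The Eomes-positive arrays lay in a narrow band below every Eomes-negative array, and all spots of the probe were well above background on all 6 arrays. The difference of -1.47 ± 0.29 (SE, n = 3 each; 95% interval -2.19 to -0.76), 2.78-fold lower, had a limma adjusted p of 0.0709, and of 0.0424 with the sort as a block. Within sorts 1, 2 and 3 it was -1.44, -0.95 and -2.03. In the fit without the block, the limma adjusted p was 0.0417 with the Eomes-negative array of sort 2 left out and 0.151 to 0.511 with any other array or sort left out. The probe was dim, with intensities before scaling of 185.3, 165.4 and 54.3 in Eomes-positive cells of sorts 1, 2 and 3. Its difference depended on the processing. It was -1.01 with another background correction, normexp, which here added an offset of 50 to the intensities (limma adjusted p 0.226). With median scaling it was -1.37 (limma adjusted p 0.175).

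The arrays lay on 3 slides, of which slide 1 held the Eomes-positive sample of sort 1 with the Eomes-negative samples of sorts 1 and 2, slide 2 the Eomes-positive sample of sort 2 alone, and slide 3 both samples of sort 3. The slides were told apart by their barcodes, and scan times were not compared. Within slides 1 and 3 the differences were 2.58 and 2.54 for Slamf7, 1.39 and 1.58 for Sh2d1a, 1.09 and 0.99 for Cd244, 0.79 and 0.69 for Ly9, and -1.10 and -2.03 for Slamf1. The directions were thus those of the whole comparison on both slides. With the slide as a block, the limma adjusted p was 0.0088 for Slamf7 and over the threshold for the other 4.

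Slamf6 (Ly108) and Cd84, self-binding receptors of T and B cells that act through SAP, did not differ beyond the spread of the arrays. The Slamf6 probe with the motif match gave 2.54, 2.62 and 2.37 in Eomes-positive cells and 2.86, 1.92 and 2.39 in Eomes-negative cells of sorts 1, 2 and 3. The order of the groups turned between sorts, and the difference was 0.12 (95% interval -0.53 to 0.76; limma adjusted p 0.977). The dimmer Slamf6 probe, at chr1:173873620-173873679 of mm9, gave a difference of 0.29. Without sort 2 the difference of the brighter probe was -0.17.

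Cd84 read 1.99, 1.69 and 1.57 in Eomes-positive cells and 1.93, 1.74 and 1.64 in Eomes-negative cells at its brighter probe, which spans chr1:173816502-173818732 of mm9 and so crosses from one exon to the next. The groups lay on top of each other, with a difference of -0.02 (95% interval -0.45 to 0.41; limma adjusted p 0.997). The dimmer Cd84 probe, at chr1:173820027-173820086, gave -1.89, -2.02 and -1.60 in Eomes-positive cells and -2.09, -2.70 and -2.01 in Eomes-negative cells. It was higher in the Eomes-positive sample of each sort, the groups overlapped slightly, and the difference of 0.43 did not pass (limma adjusted p 0.662 over all tested probes, 0.151 with the sort as a block). The difference at the brighter probe was 0.08 with median scaling and 0.06 with the slide as a block.

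**Figure D2:**
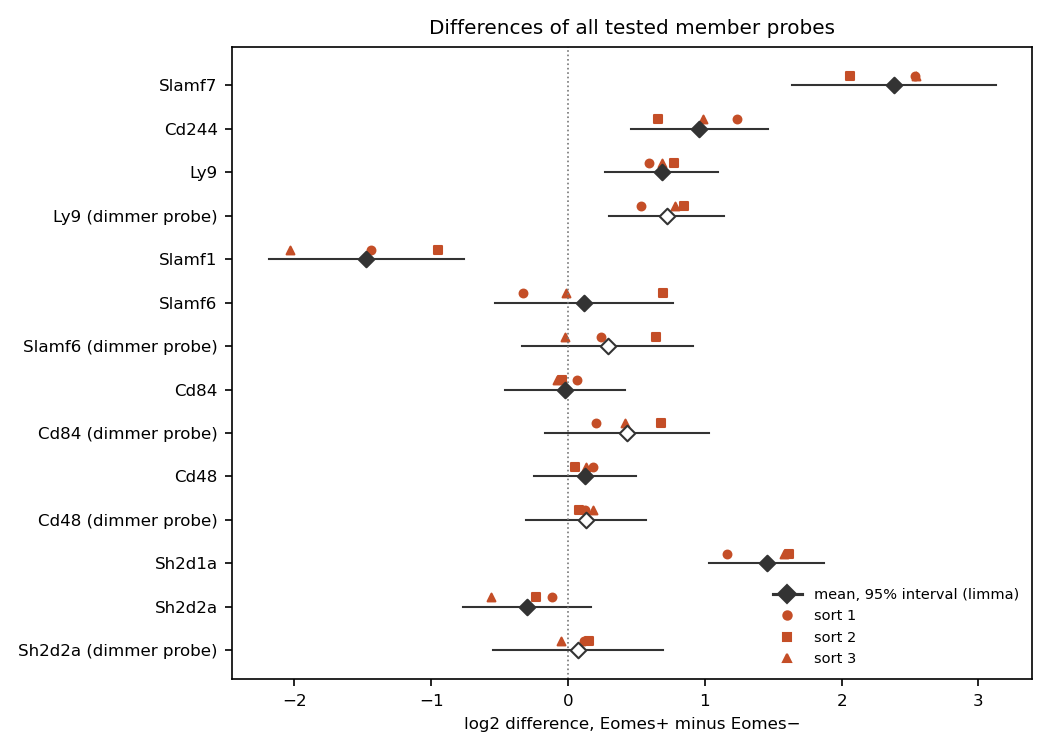
Log2 difference, Eomes-positive minus Eomes-negative (horizontal axis), for all 14 tested probes of the 9 tested genes. Diamonds are limma estimates with 95% intervals (filled for the brightest probe of a gene, open for the other), and coloured points are the differences within each sort; the 2 probes of Ly9 lie together to the right of 0, Slamf1 lies to the left, and the probes of Cd48, Slamf6, Cd84 and Sh2d2a have intervals that reach 0.

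Of the other adaptor genes, Sh2d2a did not pass the threshold and Sh2d1b1 was not tested. Sh2d2a, on chromosome 3, encodes TSAd, an adaptor of activated T cells that binds the kinase Lck. At chr3:87659527-87659586 of mm9 it read 2.13, 1.86 and 2.04 in Eomes-positive cells and 2.25, 2.09 and 2.60 in Eomes-negative cells of sorts 1, 2 and 3. It was lower in the Eomes-positive sample of each sort, by amounts that differed (-0.11, -0.23 and -0.56), and the groups overlapped. The difference of -0.30 (95% interval -0.76 to 0.16) had a limma adjusted p of 0.695, and the dimmer probe, at chr3:87655756-87656006, gave 0.07.

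Sh2d1b1 encodes EAT-2, the SAP relative of natural killer cells and of dendritic cells and macrophages. Its probe was well above background only on the arrays of sort 2, where it read -3.35 in Eomes-positive cells and -2.66 in Eomes-negative cells. The background-corrected intensities, before scaling between arrays, were 18.7, 157.1 and 22.9 in Eomes-positive cells, against 49.2, 267.3 and 11.5 in Eomes-negative cells of sorts 1, 2 and 3. High signal thus followed the sort, in both groups, and the gene was not tested.

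Most markers of myeloid cells were also highest in sort 2: 9 of the 11 were so in both groups, and Itgam and Siglech were not. The summed linear level of the 11 myeloid and dendritic cell markers was 81.7, 200.2 and 73.5 in Eomes-positive cells and 74.7, 220.6 and 78.2 in Eomes-negative cells of sorts 1, 2 and 3. Such a sum gives most weight to the brightest probes and does not measure the share of a cell type. The brightest here was Siglech, at 6.10, 6.07 and 5.26 in Eomes-positive cells and 5.81, 6.13 and 5.44 in Eomes-negative cells. None of the 9 tested markers passed the limma threshold between the groups, and 0 had an unadjusted p under 0.05. Slamf8 and Slamf9, receptors of macrophages and dendritic cells, were also highest in sort 2. Slamf8 read -5.15, -1.79 and -3.48 in Eomes-positive cells and -4.52, -1.08 and -4.13 in Eomes-negative cells. Slamf9 read -6.84, -2.52 and -3.47 in Eomes-positive cells and -4.98, -2.02 and -4.58 in Eomes-negative cells, and was measured on 4 of the 6 arrays. The part of myeloid cells in the Sh2d1b1 signal was not tested. For the tested members, an unplanned fit took the log2 of the myeloid sum as a covariate. There Slamf7 differed by 2.38 and Sh2d1a by 1.45 (limma adjusted p 0.0422 and 0.0244). Cd244, Ly9 and Slamf1 did not pass in it (limma adjusted p 0.120, 0.131 and 0.0603). Without sort 2, Slamf7 differed by 2.54 and Sh2d1a by 1.37 (limma adjusted p 0.200 and 0.203). With that sort left out, 0 of all tested genes passed in either direction. Eomes itself then had a limma adjusted p of 0.153, so the lost calls are not particular to these 2 genes.

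**Figure D3:**
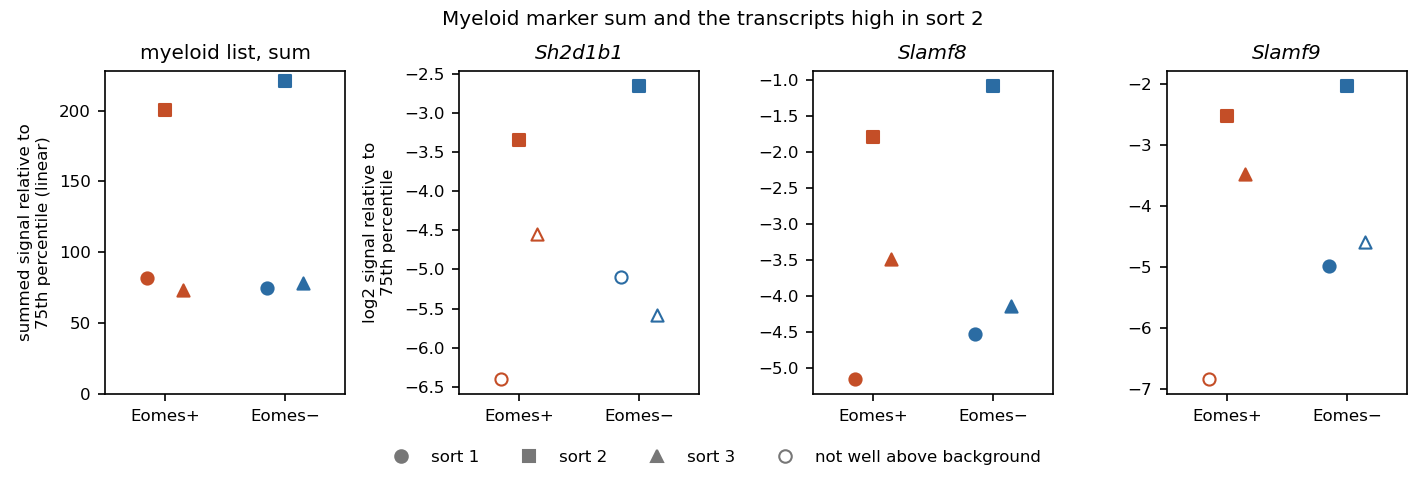
Summed linear level of the myeloid marker list, and log2 signal above or below the array's 75th percentile for Sh2d1b1, Slamf8 and Slamf9 (vertical axes), in Eomes-positive (Eomes+, left) and Eomes-negative cells (Eomes−, right). Each point is an array, its shape gives the sort, and open points are arrays where the probe was not well above background; the squares of sort 2 are the highest point of both groups in all 4 panels.

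Other cell type markers also differed between the groups. The 11 markers of NK cells and ILC1, cells that share many surface receptors with cytotoxic γδ T cells, summed to 82.4, 113.0 and 85.9 in Eomes-positive cells, against 27.9, 69.3 and 22.7 in Eomes-negative cells of sorts 1, 2 and 3. Of these 11 genes, 4 rose (Klrb1c, Klre1, Klri2 and Styk1) and 0 fell, with a median difference of 1.64. This sum too rests mostly on its brightest probes. Among them, Tyrobp was highest in sort 2 in both groups. It read 3.25, 5.40 and 4.04 in Eomes-positive cells and 2.57, 5.36 and 2.64 in Eomes-negative cells. The defining marker of the list, Ncr1, averaged 0.30 ± 0.45 in Eomes-positive and -1.41 ± 0.84 in Eomes-negative cells (SD, n = 3 each; limma adjusted p 0.184). Cd3e, the defining T cell marker, averaged 5.72 ± 0.29 in Eomes-positive and 5.79 ± 0.25 in Eomes-negative cells (SD, n = 3 each; limma adjusted p 0.988). The γδ T cell list, of which 6 of 11 genes were on the arrays, summed to between 258.5 and 326.0 in Eomes-positive and between 274.7 and 350.1 in Eomes-negative cells, and 1 of the 6 fell (Tcrg-V6).

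Of the 5 tested αβ T cell markers, 1 fell and 0 rose. Over the 6 of 9 αβ T cell markers that the arrays carry, the sum ranged from 5.80 to 6.75 in Eomes-positive and from 12.0 to 15.3 in Eomes-negative cells. Its defining marker Cd8b1 averaged -0.32 in Eomes-positive and 2.53 in Eomes-negative cells and fell by 2.86 (limma adjusted p 0.019). The 10 B cell markers summed to between 9.69 and 19.1 in Eomes-positive and between 16.0 and 24.0 in Eomes-negative cells, with 0 of 8 tested past the limma threshold and 1 at an unadjusted p under 0.05. Red cell and platelet markers ranged from 18.2 to 207.8 in Eomes-positive and from 17.7 to 162.7 in Eomes-negative cells, with 0 of 4 tested past the limma threshold and 0 at an unadjusted p under 0.05. The part of NK cells, ILC1, αβ T cells, B cells, red cells and platelets in the differences of the SLAM genes was not tested.

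Downstream of the receptors, 35 of 38 listed kinases, phosphatases, adaptors and SLAM relatives were tested. Of these 35, 1 rose (Fyn) and 0 fell, against 1.2% and 1.57% of all tested genes, and their median difference was 0.10. With the sort as a block, 2 rose (Fyn and Cblb) and 0 fell. Fyn, the Src family kinase that SAP brings to SLAM tails, read 2.04, 1.66 and 1.72 in Eomes-positive cells, against 0.60, 0.45 and 0.27 in Eomes-negative cells of sorts 1, 2 and 3. Its groups were well apart, and the difference was similar in each sort (1.44, 1.21 and 1.45). Fyn rose by 1.37 ± 0.17 (SE, n = 3 each), or 2.58-fold, with a limma adjusted p of 0.0193. Without any 1 array or sort the difference was 1.25 to 1.45 and the limma adjusted p 0.062 to 0.221, so this call too needed all 6 arrays. Within slides 1 and 3 it was 1.52 and 1.45.

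Cblb, an E3 ubiquitin ligase that restrains T cell activation, read 1.79, 1.96 and 2.50 in Eomes-positive cells, against 1.02, 0.75 and 1.21 in Eomes-negative cells. Its difference of 1.09 ± 0.24 (SE, n = 3 each) had a limma adjusted p of 0.099, and of 0.0291 with the sort as a block. The phosphatases that compete with SAP showed no difference beyond their spread. Ptpn6, which encodes SHP-1, differed by -0.15 ± 0.22 and Inpp5d, which encodes SHIP-1, by 0.20 ± 0.24 (SE, n = 3 each; limma adjusted p 0.956 and 0.925). Sh2d1b2, a second EAT-2-like adaptor gene, was measured on 0 of the 6 arrays.

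**Figure D4:**
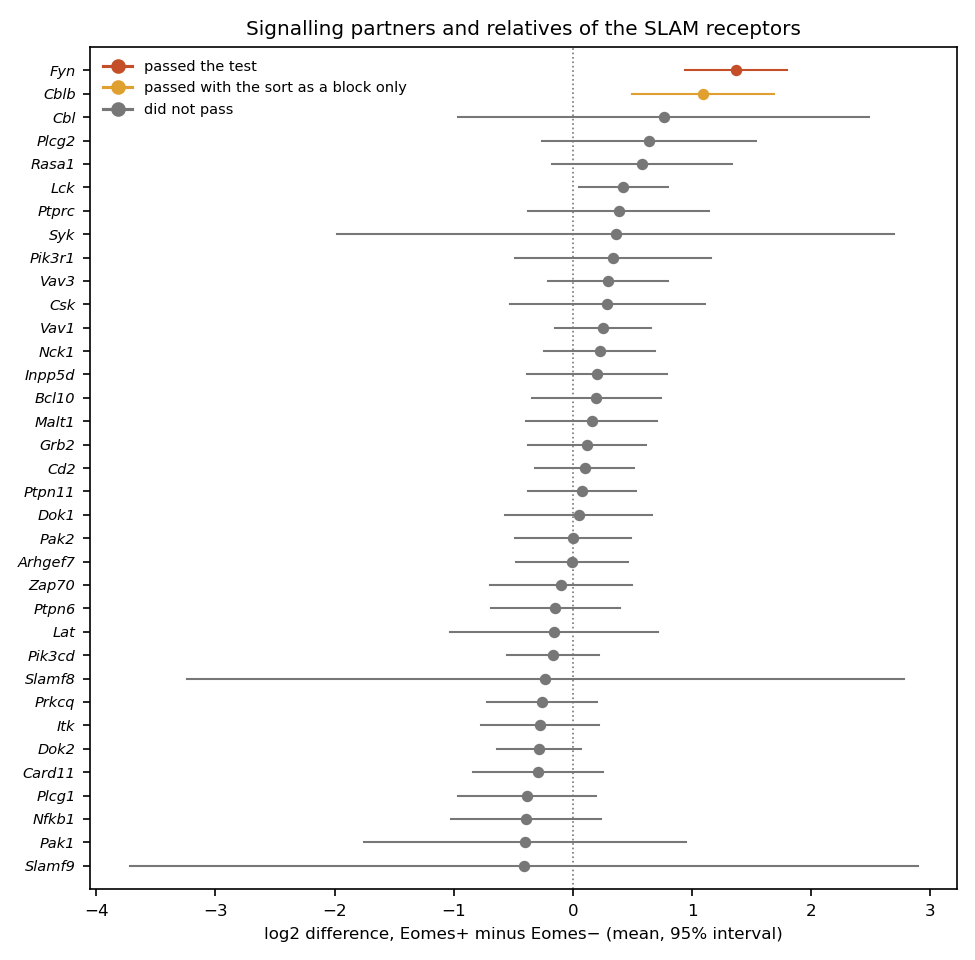
Log2 difference, Eomes-positive minus Eomes-negative (horizontal axis), of the 35 tested signalling partners and relatives of the SLAM receptors, ordered by size. Points are limma estimates with 95% intervals, coloured by whether the gene passed the limma threshold; Fyn and Cblb are at the top, and most of the other estimates lie within 0.5 of 0.

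The 7 receptor genes lie together on chromosome 1, with their probes within 358.3 kb of mm9, and their differences varied along the cluster. From the Cd244 probe, the Ly9 probe lay 3.36 kb, the Slamf7 probe 47.1 kb and the Cd48 probe 119.8 kb further along, followed by Slamf1 at 215.0 kb, Cd84 at 301.1 kb and Slamf6 at 356.4 kb. The first 3 of this order had differences of 0.96, 0.68 and 2.38, and the next 4 had 0.12, -1.47, -0.02 and 0.12. In and around the cluster lay 29 other features of the array, some known only by a probe or transcript ID, and 18 of them were tested. The only one among the receptor probes, at 312.9 kb, was measured on 0 of the 6 arrays. All 18 tested features thus flanked the cluster, the nearest being Alyref2 at -81.0 kb and Vangl2 at 419.1 kb from the Cd244 probe. None of the 18 passed in either limma fit. The number at an unadjusted p under 0.05 was 1, or 5 in the blocked fit, against 12.2% and 26.2% of all tested genes. Their median difference was -0.11, with a range from -0.93 to 0.47. The 3 with the highest signal were Ufc1, Copa and Pfdn2, with differences of -0.32, -0.09 and -0.05.

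**Figure D5:**
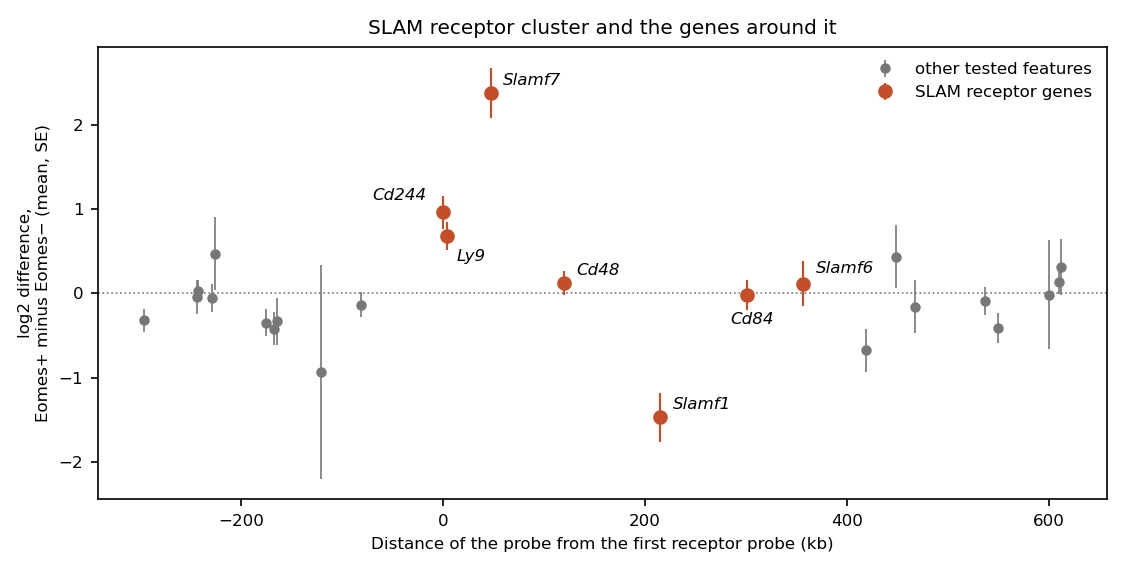
Log2 difference, Eomes-positive minus Eomes-negative (vertical axis, bars are SE), against the distance of each gene's probe from the Cd244 probe in kb (horizontal axis). The 7 SLAM receptor genes are coloured and 18 other tested features are grey; Slamf7 stands highest and Slamf1 lowest, and the grey points lie between -0.93 and 0.47.

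RefSeq promoter windows (GRCm38.p6) were given for 7 of the 10 genes, and are shown for Slamf7, Slamf1 and Cd48 because these stand for the genes that were higher, lower and near 0. Eomes is a T-box factor, and the core of the T-box motif, GTGTGA, was searched on both strands over the bases before the gene start. It was found in 4 of the 7 windows (Slamf1, Cd48, Slamf7 and Sh2d1b1), against 12.3% of 32851 promoters. The longer form GGTGTGA, which contains the core, was found in 1 (Cd48), against 3.33% of promoters, and AGGTGTGA in 0, against 1.12%. The match is in capitals, and is the reverse complement TCACAC in Slamf1. The windows are chr1:171649000-171649249 on the minus strand for Slamf7, chr1:171766882-171767131 on the plus strand for Slamf1 and chr1:171681742-171681991 on the plus strand for Cd48.
Slamf7: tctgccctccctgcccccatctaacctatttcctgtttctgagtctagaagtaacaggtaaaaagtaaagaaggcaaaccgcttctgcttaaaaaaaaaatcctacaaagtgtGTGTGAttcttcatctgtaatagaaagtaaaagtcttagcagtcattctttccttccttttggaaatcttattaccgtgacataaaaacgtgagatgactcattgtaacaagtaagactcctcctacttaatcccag
Slamf1: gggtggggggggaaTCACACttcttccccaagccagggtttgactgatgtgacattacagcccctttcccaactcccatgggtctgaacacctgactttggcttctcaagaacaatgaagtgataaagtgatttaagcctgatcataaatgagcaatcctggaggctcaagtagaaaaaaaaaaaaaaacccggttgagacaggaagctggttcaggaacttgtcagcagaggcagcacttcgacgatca
Cd48: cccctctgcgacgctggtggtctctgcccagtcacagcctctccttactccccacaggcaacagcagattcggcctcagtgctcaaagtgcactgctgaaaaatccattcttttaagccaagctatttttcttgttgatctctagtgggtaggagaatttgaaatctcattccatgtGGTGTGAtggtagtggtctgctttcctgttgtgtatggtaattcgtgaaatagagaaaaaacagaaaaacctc
The core was thus present before Slamf7, which was higher, Slamf1, which was lower, and Cd48, whose groups overlapped. It was absent before Cd244, whose groups were apart, and before Cd84 and Slamf6, whose groups overlapped. The part of the motif in these differences was not tested.

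Among 12284 tested genes with a plain symbol, those whose values over the 6 arrays were most like Slamf7 were Phlpp2, Rdh10 and Mcoln2, with Pearson correlations of 0.997, 0.996 and 0.996. Those most like Sh2d1a were Hspa2, Gpr174 and Myh15, with correlations of 0.998, 0.997 and 0.996. The 6 arrays share sorts and groups, so these values describe likeness over these samples. The differences between the groups were 0.66, 1.05 and 1.21 for the genes like Slamf7, and 0.87, 1.57 and 4.41 for those like Sh2d1a.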

How the data were processed

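Single-colour Agilent arrays were hybridised with amplified RNA (1 round) of 6 samples, 3 per group. The deposited intensity values are the processed signals of each array's scanner output, background-corrected by Agilent Feature Extraction 10.7.3.1 per the submitters' processing notes. The deposited value table of the series, the authors' own scaling of the same arrays, served as an alternative after its log2 was taken. On the log2 scale it differed from the scanner values by a constant per array (interquartile range of the offset at most 0.00289). What set that constant is not given in the sources used here. The deposited spot flags, recorded as other values, marked spots well above background, saturated or outlying. No spot of the 15 probes was saturated (0 spots).

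From these values, control spots and outlier spots were left out, the 4 spots of a probe were averaged, and log2 signal was taken minus the array's 75th percentile, whose intensity was 1578 to 1681 in the 9 ng samples and 533 to 550 in the 4 ng samples. The number of arrays, not counting error, limits the precision. The brightest probe stood for a gene, and genes entered the test when 50% or more of the spots exceeded background clearly on 3 or more of the 6 arrays. limma 3.58.1 in R 4.3.3 (lmFit, eBayes) compared the groups, two-sided, with Benjamini-Hochberg adjustment over 16413 genes (some known only by an ID). The script was tested on simulated data. RefSeq (GRCm38.p6) symbols were matched by accession for 27508 probes; Cd244 is Cd244a there. Probe coordinates are those of the files (mm9).

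Same-numbered samples share a sort, and thus a pool of spleens, in the labels. Their deviations from the group means correlated at 0.81, 0.82 and 0.81, and those of other pairs at -0.57 to -0.26. The negative values follow largely from centring each group on its mean and are not a separate result. The sort as a block, the slide as a block, other background corrections, scalings and filters, and the loss of each array or sort were alternatives. The fits with an array or sort left out had no block. For the members, a fit with the myeloid marker sum as a covariate was added unplanned. The members, the partner and marker lists and the tests were chosen with earlier results of these data known. The rule for named genes took all 10 members and their probes, called partners with Fyn, Inpp5d, Ptpn6, Cd2, Slamf8, Slamf9 and Sh2d1b2, the defining markers of each list, Eomes, the 3 brightest genes near the cluster, and the 3 genes most correlated with each called member. Cblb, Cd3d, Cd3g, Tcrg-V1, Tcrg-V6, the 4 called NK and ILC1 markers, S100a8 and the promoters shown were chosen after their values were seen. Of the defining markers, Hbb-b1 was not on the arrays under that name, Csf1r is given with the other observations, and 1 is not reported here.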

Additional observations from a re-analysis of the deposited data

How the results depend on the processing

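Over all genes, 197 rose and 257 fell. With the replicate block, that is the sort, 600 were higher and 710 lower, without a filter on dim probes 92 rose and 154 fell, and with genes measured on all 6 arrays 166 fell. Leaving out an array or a sort gave 0 to 101 genes higher and 0 to 180 lower; without sort 1, 2 or 3, 1354, 1267 and 1973 genes had an unadjusted p under 0.05. Of the SLAM members, 4 rose and 1 fell with the replicate block, 1 rose with the slide as a block, and 0 to 1 rose and 0 to 1 fell when an array or sort was left out, with 4 or 5 at an unadjusted p under 0.05. At the probe level, 5 rose and 1 fell with the replicate block, 1 rose with the slide as a block, 1 rose without the filter, and 0 to 1 rose and 0 to 1 fell in the leave-outs. Of the partners, 2 rose with the replicate block, 0 without the filter (Fyn adjusted p 0.069; 2 at an unadjusted p under 0.05), and 0 in every leave-out (2 to 4 at an unadjusted p under 0.05). Of the cell type markers, 4 rose and 2 fell; 6 rose and 4 fell with the replicate block, 1 fell with the slide as a block, 2 rose without the filter, and 0 to 3 rose and 0 to 2 fell in the leave-outs. Genes near the cluster gave 0 calls throughout. Slamf7 passed the threshold in 11 of 20 alternatives, with differences of 2.14 to 2.58, and Sh2d1a in 11 of 20, with 1.35 to 1.60. Of these 20, 19 were planned. The other was the fit with the myeloid marker sum as a covariate, which both genes passed. Signs turned for Cd84 (0.0572 with the slide as a block, 0.0781 with median scaling, 0.207 with the mean of its probes, -0.141 to 0.0715 in the leave-outs), for Slamf6 (-0.173 to 0.352 in the leave-outs), for Cd2 (-0.0168 to 0.209 in the leave-outs) and for the second Sh2d2a probe (-0.0842 to 0.281 in the leave-outs). The cause of these changes was not tested, beyond the smaller number of samples in the leave-outs and the number of genes tested under the filters. Signal over background limits Sh2d1b1, whose level outside sort 2 is not known.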

Other observations

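The second Sh2d2a probe was dim, and its difference depended on the spots used: 0.07 as reported and 1.03 with outlier spots kept. Csf1r, the receptor for macrophage colony-stimulating factor, was highest in sort 2 in both groups, at 3.74 in Eomes-positive and 5.14 in Eomes-negative cells. The neutrophil gene S100a8 read -1.89, 5.89 and -1.52 in Eomes-positive cells and -1.92, 5.64 and -2.29 in Eomes-negative cells of sorts 1, 2 and 3.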
